A study of Mus musculus with 7 samples.

Results

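The genes described here are 40 products of the hepatocyte, the main cell of the liver: plasma proteins that it secretes, and enzymes by which it is recognised. They were chosen by symbol, and all 40 were found among the 22173 genes of the deposited expression table. RNA sequencing had given 7 libraries of mouse spleen, 3 from the group given phosphate-buffered saline (PBS) and 4 from the group given 4 injections of a biomaterial named sHA-X. Hepatocytes were then injected into the spleens of both groups, and RNA was taken 30 days later. Every library therefore comes from a spleen that had received hepatocytes, and no spleen without them was analysed. Strain, age, sex and the source of the hepatocytes are not given in the sources used here. Values are FPKM, that is, sequenced fragments scaled to gene length and to the depth of the library, so levels can be set side by side between genes.

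Hepatocytes make most of the proteins of blood plasma. Among them are albumin, carriers of hormones, vitamins, haem and metals, and the serpins, inhibitors that trap a protease by offering it a bait loop. A hepatocyte is also recognised by enzymes of methionine, one-carbon and urea metabolism. The spleen is not a main source of plasma proteins, but stromal cells and macrophages can express some of these genes. For that reason each library's FPKM was also given as a percent of the FPKM of the same gene in sHA-X replicate 4. Each gene can then be read against albumin in the same library.

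The libraries held between 29516830 and 37108844 recovered reads. All 12 spleen markers checked were above 0 in all 7 libraries, with a summed level of 1649 to 1990 FPKM in PBS and 1766 to 1828 FPKM in sHA-X. PBS replicate 2 stood apart in 13 genes of pancreatic acinar cells, with a summed level of 1278 FPKM against 15.6 to 35.2 FPKM in the other libraries. In sHA-X replicate 2, 10 skeletal muscle genes summed to 247.5 FPKM, against 8.45 to 16.5 FPKM elsewhere. The same library had the highest sum of 9 adipocyte genes (131.2 FPKM, against 8.41 to 63.9 FPKM). The part of these tissues in the values below was not tested.

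Sequences of the members were described in 2 respects. First, several members have near-copies. The 5 genes Serpina1a to Serpina1e encode alpha-1-antitrypsin, the main inhibitor of neutrophil elastase in plasma, and lie together on chromosome 12 (between 103728156 and 103956897, GRCm38). Their coding sequences in GENCODE M21 are all 1242 bases long and 96.3% to 98.47% identical in pairs. Windows of 50 bases found word for word in transcripts of other genes made up 57.6% of those of Serpina1a, 29.5% of Serpina1b, 74.2% of Serpina1c, 50.9% of Serpina1d and 34.6% of Serpina1e. Reads lying wholly within such windows cannot be placed by their own sequence, so the values of the 5 genes can be uncertain singly. Whether flanking bases or a paired read placed them was not examined. The window of 60 coding bases (bases 1101 to 1160, counted from the A of the start codon) with the most differences is printed here. It had 18 variable positions (30.0%), against 86 of 1242 (6.92%) over the whole coding sequence. Capitals mark bases that differ from Serpina1a.
Serpina1a: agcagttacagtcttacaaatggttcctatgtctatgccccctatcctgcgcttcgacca
Serpina1b: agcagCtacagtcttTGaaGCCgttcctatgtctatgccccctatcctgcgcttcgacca
Serpina1c: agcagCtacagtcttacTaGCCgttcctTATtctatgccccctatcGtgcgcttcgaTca
Serpina1d: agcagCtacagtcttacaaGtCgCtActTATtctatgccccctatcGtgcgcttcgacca
Serpina1e: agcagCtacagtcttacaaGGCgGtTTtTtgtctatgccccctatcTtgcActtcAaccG

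Outside this family the share of such windows was 68.7% for Ahcy, 50.5% for Mup20, 25.3% for Bhmt, 17.2% for Kng1, 14.0% for Serpina3k and 13.3% for Mup3. It was at most 1.22% for the other members. Without strand information, reads from overlapping genes on the opposite strand cannot be told apart. Such a gene covered 31.5% of the exon bases of Serpina1c and 11.0% of those of Aldh1l1, and at most 3.25% of those of any other member.

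Second, the promoters of several members share a short motif. HNF1, a transcription factor of hepatocytes, binds an inverted repeat with the arm GTTAAT. In windows from 250 bases before to 50 bases after the start site (RefSeq, GRCm38.p6), this motif was found on either strand in 13 of 32 member promoters (40.6%) and in 7.2% of all 27025 promoters. The 13 were Alb, Afp, Cp, Fabp1, Gc, Itih1, Lect2, Vtn and the 5 Serpina1 genes, which are near-copies. The TATA box motif TATAAA was found in 7 of 32 (14.2% of all promoters). For forkhead factors the motif TGTTTAC was found in 1 (3.55%). Neither CAAAGTCCA, for HNF4A (0.477%), nor for C/EBP factors the motif TTGCGCAA (0.185%) was found in a member. A match describes letters in a window, not a bound site. The 150 bases before the start site are given for Alb (chr5:90460720-90460869, plus strand), its neighbour Afp (chr5:90490564-90490713, plus strand), Serpina1a (chr12:103863620-103863769, minus strand) and Serpina1b (chr12:103738190-103738339, minus strand), because Alb and Afp share the motif but differ in their values. Capitals mark GTTAAT, which ended 26, 99, 15 and 20 bases before the start site in the order given.
Alb: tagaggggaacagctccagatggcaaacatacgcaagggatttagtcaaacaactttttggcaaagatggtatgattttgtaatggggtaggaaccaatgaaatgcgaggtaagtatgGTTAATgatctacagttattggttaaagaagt
Afp: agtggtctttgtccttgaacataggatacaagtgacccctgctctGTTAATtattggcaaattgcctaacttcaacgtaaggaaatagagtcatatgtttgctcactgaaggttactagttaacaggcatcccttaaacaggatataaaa
Serpina1a: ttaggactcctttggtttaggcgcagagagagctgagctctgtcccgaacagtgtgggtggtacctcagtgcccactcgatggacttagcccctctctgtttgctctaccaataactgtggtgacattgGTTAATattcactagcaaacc
Serpina1b: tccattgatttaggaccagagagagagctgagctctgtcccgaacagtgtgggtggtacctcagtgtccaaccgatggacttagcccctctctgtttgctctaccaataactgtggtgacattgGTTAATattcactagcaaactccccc

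Of the 40 genes, most stood high in replicates 3 and 4 of sHA-X and near 0 in the other 5 libraries. In 34 genes every PBS library was under 10% of sHA-X replicate 4. In Ahcy, Cp and Afp every PBS library was at 50% or more, and Serpinf1, Aldh1l1 and Itih3 lay between. The gene nearest below the 10% limit was Gnmt, at 9.31% in its highest PBS library, and the nearest above it was Itih3, at 15.1%. At the limit of 50%, Cp was at 54.5% in its lowest PBS library, and the next gene below, Aldh1l1, at 25.9%. Replicates 3 and 4 of sHA-X were the 2 highest of the 7 libraries for 38 of the 40 genes, all except Cp and Serpinf1, and for 7.16% of the 11920 genes tested. In bulk tissue, fewer hepatocytes and less RNA in each of them cannot be told apart.

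**Figure D1:**
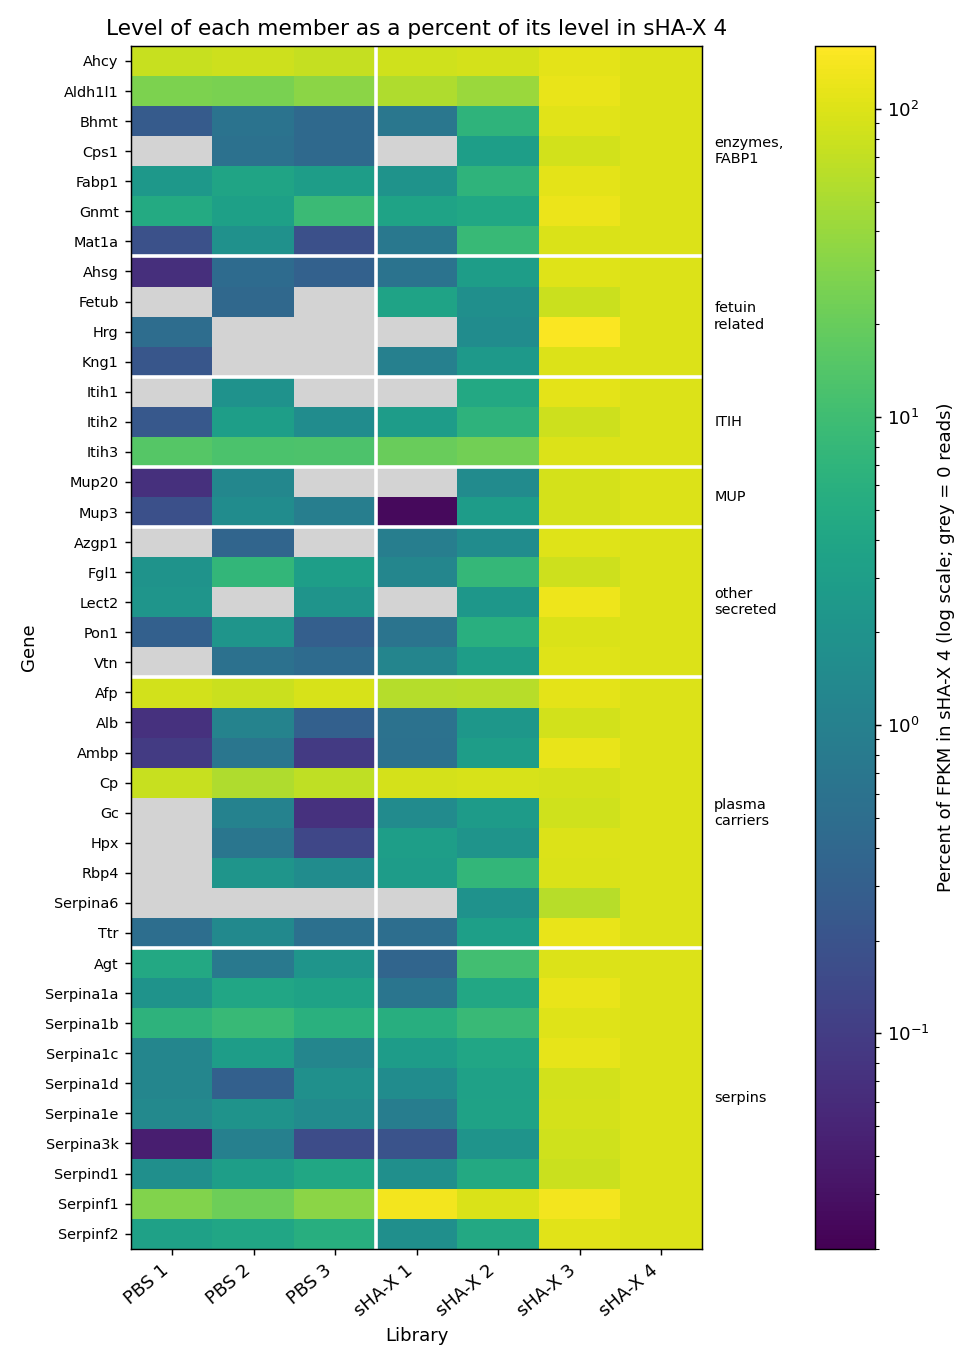
FPKM of each of the 40 genes (rows, by role) in each library (columns) as a percent of its FPKM in sHA-X replicate 4, on a log colour scale, with 0 reads in grey. Apart from Ahcy, Aldh1l1, Itih3, Afp, Cp and Serpinf1, every gene is under 10% in all 3 PBS libraries, and sHA-X replicate 3 lies between 60.1% and 152% for the 34 genes low in PBS.

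The 34 genes low in PBS had a summed level of 9.27, 23.1 and 13.5 FPKM in PBS replicates 1 to 3, and of 15.4, 46.5, 1355 and 1431 FPKM in sHA-X replicates 1 to 4. The low libraries overlapped between the groups, since sHA-X replicate 1 was below PBS replicate 2. Behind these sums stood 393, 1060 and 611 reads in PBS and 719, 2064, 69688 and 82884 reads in sHA-X. As a percent of sHA-X replicate 4, the median gene was at 0.232%, 1.19% and 0.446% in the PBS libraries and at 0.815%, 3.33% and 99.6% in sHA-X replicates 1 to 3. Of the 34 genes, 9, 4 and 7 had 0 reads in PBS replicates 1 to 3 and 6 in sHA-X replicate 1, while sHA-X replicates 2 to 4 had reads for all 34. PBS replicate 2, the library with acinar genes, was the highest PBS library for 25 of the 34 genes. Replicate 2 of sHA-X, the library with muscle and adipocyte genes, was above every PBS library for 32 genes and above sHA-X replicate 1 for 32. For sHA-X replicate 1, 9 genes were above every PBS library. The shares of all tested genes in these comparisons of single libraries were not counted, so the counts only describe the 34 genes.

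**Figure D2:**
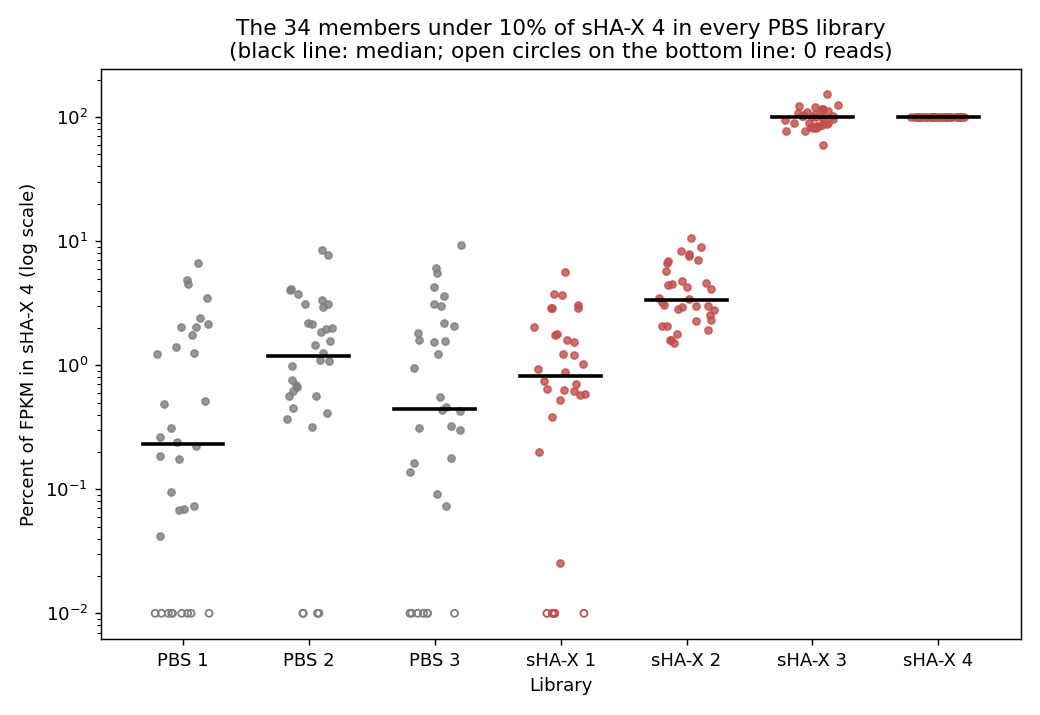
Each point is 1 of the 34 genes under 10% of sHA-X replicate 4 in every PBS library, plotted as a percent of its FPKM there on a log axis (grey PBS, red sHA-X), with medians as black lines and 0 reads as open circles on the bottom line. The PBS medians are 0.232%, 1.19% and 0.446%, and those of sHA-X replicates 1 to 4 are 0.815%, 3.33%, 99.6% and 100%.

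The plasma carriers followed this pattern in 7 of 9 genes. Albumin (Alb, chromosome 5, 90460870 to 90476602), the most abundant plasma protein, rested on 18, 270 and 79 reads in PBS replicates 1 to 3, and on 143, 519, 22420 and 28470 reads in sHA-X replicates 1 to 4. It was at 0.0733%, 1.11% and 0.309% of its level in sHA-X replicate 4 in PBS and at 0.587%, 2.29% and 87.8% in sHA-X replicates 1 to 3. Albumin thus varied 15.1-fold within PBS, and its level in PBS replicate 2 was above that in sHA-X replicate 1. Albumin made up 24.0% and 25.9% of the summed FPKM of the 34 genes in sHA-X replicates 3 and 4. It was 2.93%, 17.8% and 8.47% of that sum in PBS replicates 1 to 3.

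Hpx, which encodes the haem carrier hemopexin (chromosome 7, 105591611 to 105600116), was 0, 0.613 and 0.121 FPKM in PBS and 2.73, 1.85, 88.4 and 88.5 FPKM in sHA-X. The 0 reads in PBS replicate 1 allow up to 0.063 FPKM, by a limit of 3 reads. The groups did not overlap for this gene, and sHA-X replicate 1 was above replicate 2. Gc, the vitamin D carrier (chromosome 5, 89417511 to 89457898), was 0, 0.483 and 0.033 FPKM in PBS, with up to 0.103 FPKM allowed by the 0 reads. In sHA-X it was 0.691, 1.27, 38.0 and 45.01 FPKM, again with no overlap between the groups (20 reads in sHA-X replicate 1, 14 in PBS replicate 2). Ttr, the carrier of thyroid hormone and of retinol-binding protein, was at 0.518% to 1.45% of sHA-X replicate 4 in PBS and at 0.522%, 3.25% and 120% in sHA-X replicates 1 to 3. For Ttr, sHA-X replicate 1 was within the PBS range.

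Rbp4, the retinol carrier, reached 22.7 and 23.4 FPKM in sHA-X replicates 3 and 4, with 0 to 0.507 FPKM in PBS and 0.676 and 1.77 FPKM in the other sHA-X libraries. Ambp, the precursor of alpha-1-microglobulin and bikunin, reached 30.2 and 25.8 FPKM and was at most 0.772 FPKM elsewhere. Serpina6, the cortisol carrier, was the faintest of the carriers, with 35 and 65 reads in sHA-X replicates 3 and 4, 1 read in replicate 2 and 0 in the other 4 libraries. Those 0 counts allow up to 5.39% of its level in sHA-X replicate 4. Alb and Serpina6 thus differed widely in depth, and both were highest in sHA-X replicates 3 and 4.

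The 4 fetuin and kininogen genes lie together on chromosome 16 (22892015 to 23082078), and all 4 were low in PBS. Ahsg, which encodes the calcium-binding fetuin-A, was 0.063, 0.423 and 0.303 FPKM in PBS and 0.571, 2.80, 94.7 and 92.8 FPKM in sHA-X. Its groups did not overlap, with 27 reads in sHA-X replicate 1 and 20 in PBS replicate 2. Its neighbour Fetub, fetuin-B, was 0.158, 0.0756, 3.30 and 4.24 FPKM in sHA-X and had 1 read in all of PBS. Kng1, the kininogen from which bradykinin is cut, was 0.115, 0.289, 11.2 and 11.3 FPKM in sHA-X and at most 0.0254 FPKM in PBS. Hrg, histidine-rich glycoprotein, had 0 reads in sHA-X replicate 1 and 5.54 and 3.64 FPKM in replicates 3 and 4. Its 152% in replicate 3 was the highest of the 34 genes (95% interval 128% to 181%, exact binomial, for counting error only).

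Of the 10 serpins, 9 were low in PBS. Serpina3k (chromosome 12, 104338486 to 104345739), which encodes the kallikrein inhibitor contrapsin, was 0.0564, 1.33 and 0.217 FPKM in PBS and 0.265, 2.75, 112.1 and 133.5 FPKM in sHA-X. Its value in PBS replicate 2 exceeded that in sHA-X replicate 1, as for albumin. Serpina1e, the highest of the alpha-1-antitrypsin genes in sHA-X replicates 2 to 4, was at 1.83, 2.62 and 2.02 FPKM in PBS and 1.16, 4.59, 117.8 and 131.1 FPKM in sHA-X. Serpina1c was 0.437, 1.05 and 0.441 FPKM in PBS and 1.03, 1.47, 40.9 and 35.8 FPKM in sHA-X.

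Serpina1b differed from albumin in how evenly it stood in the low libraries. It was 2.84, 3.60 and 2.58 FPKM in PBS and 2.42, 3.79, 43.6 and 42.5 FPKM in sHA-X. Its PBS libraries varied 1.4-fold where those of albumin varied 15.1-fold, and the 5 low libraries held 5.69% to 8.91% of sHA-X replicate 4. Serpina1a and Serpina1d reached 17.5 FPKM each in sHA-X replicate 3, and were at most 0.661 and 0.701 FPKM in the 5 low libraries. The printed window shows how few bases separate these 5 genes, and the part of reads from near-copies in the even level of Serpina1b was not tested.

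Among the remaining serpins, Agt encodes angiotensinogen, Serpinf2 the plasmin inhibitor alpha-2-antiplasmin and Serpind1 the thrombin inhibitor heparin cofactor II. They reached 4.29, 7.78 and 2.499 FPKM in sHA-X replicate 3 and 4.25, 7.35 and 3.22 FPKM in replicate 4. In PBS they were at most 0.193, 0.409 and 0.137 FPKM. Agt was at 10.7% of sHA-X replicate 4 in sHA-X replicate 2 (95% interval 6.87% to 16.0%), the highest of the 34 genes in that library, where albumin was at 2.29% (2.10% to 2.50%). Adipocyte genes, whose sum was highest in that library, come from a cell that can also express Agt, and their part was not tested.

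Heavy chains of the inter-alpha-trypsin inhibitor, which bind covalently to hyaluronan in the matrix, were represented by 3 genes. Itih1 had 0 reads in PBS replicates 1 and 3 and in sHA-X replicate 1, and 4.08 and 3.64 FPKM in sHA-X replicates 3 and 4. Itih2 was at most 0.281 FPKM outside those libraries and 3.42 and 4.17 FPKM in them. Itih3, next to Itih1 on chromosome 14 (30908572 to 30923787), was 1.01, 0.842 and 0.873 FPKM in PBS and 1.37, 1.60, 6.57 and 6.69 FPKM in sHA-X. Itih3 thus had a level of its own in every library, with all sHA-X libraries above all PBS libraries, and did not pass the test (adjusted p = 0.188, limma).

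Major urinary proteins, small pheromone carriers of mouse urine, are made in the liver. Mup3 (chromosome 4, 62083476 to 62087317) was 0.238, 2.12 and 1.28 FPKM in PBS and 0.0343, 3.84, 121.4 and 134.7 FPKM in sHA-X. Mup20, which encodes the male pheromone darcin, was 0.0315, 0.570 and 0 FPKM in PBS (up to 0.0907 FPKM allowed) and 0, 0.682, 40.7 and 45.02 FPKM in sHA-X (up to 0.0951 FPKM allowed in replicate 1). Replicate 1 of sHA-X had 1 read of Mup3, against 7, 62 and 39 in PBS, and 0 reads of Mup20, against 1, 18 and 0.

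The 5 other secreted proteins were all low in PBS. Vtn, the adhesion protein vitronectin, reached 23.2 and 22.3 FPKM in sHA-X replicates 3 and 4. Azgp1, zinc-alpha-2-glycoprotein, reached 13.2 and 12.8 FPKM, and Pon1, the esterase paraoxonase carried on high-density lipoprotein, 4.43 and 4.63 FPKM. Fgl1, a fibrinogen-like hepatokine and ligand of LAG3, reached 4.86 and 5.95 FPKM, and the chemotactic hepatokine Lect2 0.850 and 0.675 FPKM. In the 5 low libraries none of these 5 genes was above 0.657 FPKM.

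Among the 7 genes that act inside the hepatocyte, 5 were low in PBS. Fabp1, the fatty acid carrier of the liver cytosol (chromosome 6, 71199879 to 71205034), stood at 2.42% to 3.76% of sHA-X replicate 4 in PBS and at 2.04%, 6.90% and 109% in sHA-X replicates 1 to 3. Bhmt, which makes methionine from betaine, was 0.121, 1.19, 18.4 and 17.0 FPKM in sHA-X and 0.045 to 0.106 FPKM in PBS. Its groups did not overlap, but sHA-X replicate 1 had 8 reads and PBS replicate 2 had 7, which is within counting error. Mat1a, the liver form of methionine adenosyltransferase, reached 4.57 FPKM in sHA-X replicate 3 and 4.81 FPKM in replicate 4. Cps1, the first enzyme of the urea cycle, reached 4.23 and 4.90 FPKM there. Both were at most 0.404 FPKM elsewhere. Gnmt, which uses up S-adenosylmethionine, was 0.482, 0.334 and 0.927 FPKM in PBS and 0.364, 0.425, 12.3 and 9.95 FPKM in sHA-X.

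**Figure D3:**
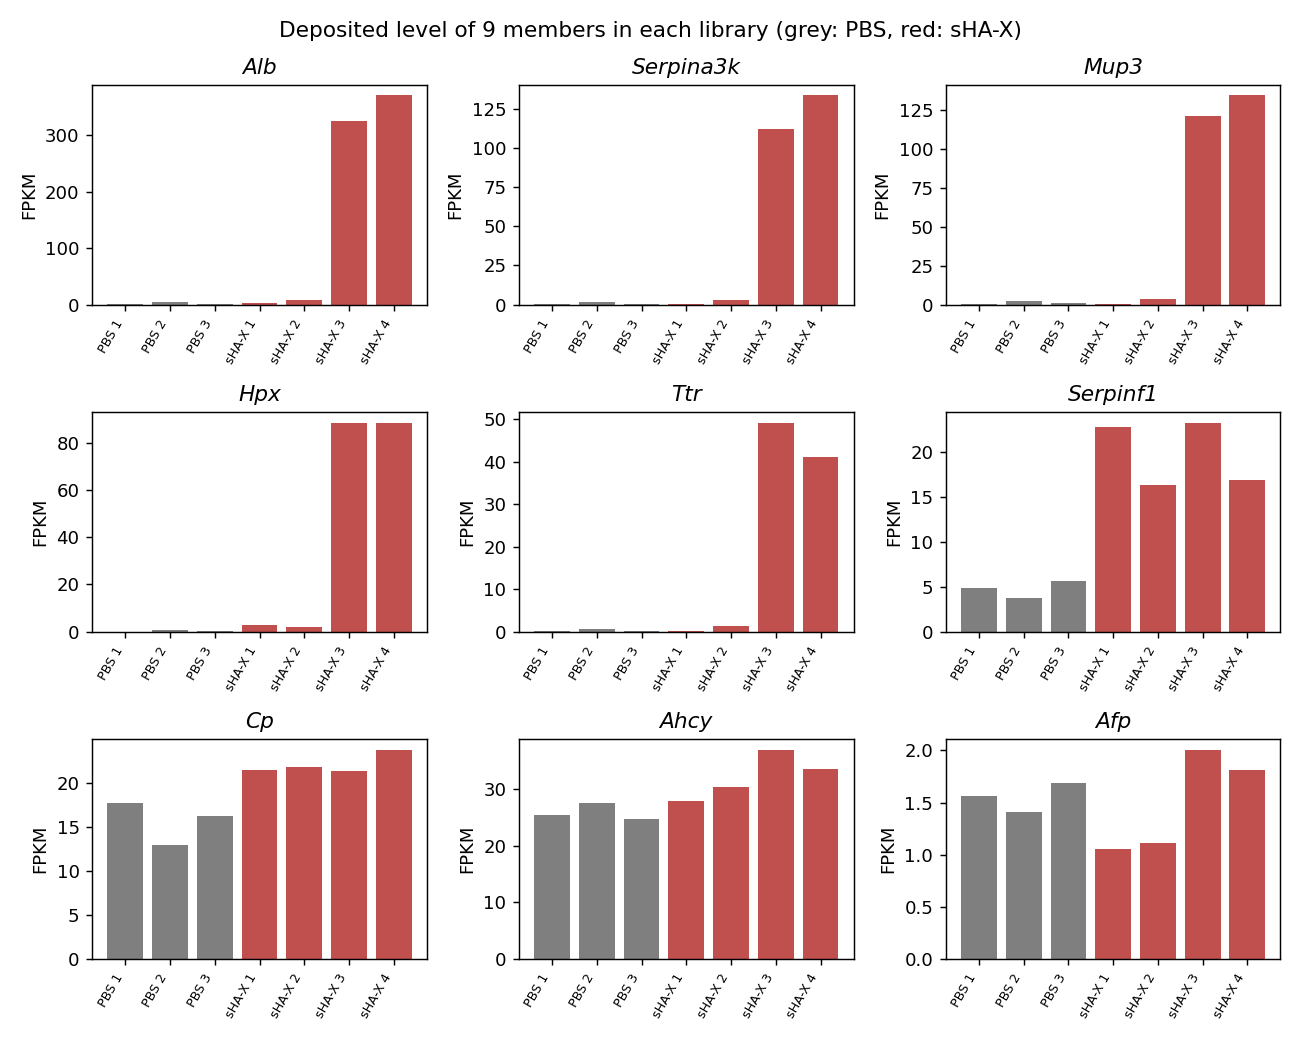
FPKM of 9 genes in each library (1 bar per library, grey PBS, red sHA-X, linear axes from 0). Alb, Serpina3k, Mup3, Hpx and Ttr are tall only in sHA-X replicates 3 and 4, Serpinf1 is above 16 FPKM in all 4 sHA-X libraries and under 6 FPKM in PBS, and Cp, Ahcy and Afp stand in every library.

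The relative levels of the 34 genes were close in sHA-X replicates 3 and 4. Replicate 3 was within 80% to 125% of replicate 4 for 29 of the 34 genes, above it for 16, with extremes of 60.1% for Serpina6 and 152% for Hrg. Over all 40 genes the correlation of log2(FPKM + 1) between these libraries was 0.994 (Pearson's r across genes, which are not independent replicates). The libraries share the same gene lengths and models.

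Replicate 1 of sHA-X departed from the relative levels of replicates 3 and 4. In it Hpx was at 3.09% of sHA-X replicate 4 (95% interval 2.57% to 3.68%, from 129 reads) and Fetub at 3.73% (1.69% to 7.18%, from 9 reads). In the same library Alb was at 0.587% (0.494% to 0.691%), Serpina3k at 0.199% (0.109% to 0.334%) and Mup3 at 0.0255% (0.000644% to 0.142%). Hpx thus had nearly as many reads as albumin there (129 and 143), where sHA-X replicate 4 had 4883 and 28470. These intervals cover counting error only.

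Tested as groups, sHA-X against PBS, few of the 40 genes passed. Levels were compared as log2(FPKM + 1) with limma over 11920 genes with a mean of at least 1 FPKM, with Benjamini-Hochberg adjustment. Of the 40 genes 37 were tested, and Serpina6, Lect2 and Serpind1 were under the filter. At an adjusted p under 0.05, 2 genes rose, Serpinf1 and Cp, 0 fell and 35 did not pass. Of all tested genes 9.30% rose and 5.03% fell. At an unadjusted p under 0.05, Ahcy and Aldh1l1 were also higher, and 0 were lower. The shares of all tested genes at that limit were at least the 9.30% and 5.03% above, and were not counted. The labels do not say that each library is a separate animal, so these p-values measure only the spread between libraries.

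The median log2 change of the 37 tested genes was 1.85, against 0.03 for all tested genes. Many of the 37 passed the filter only through sHA-X replicates 3 and 4, so this median was partly set by the filter. Alb had a difference of 4.18 on the log2 scale (SE 2.03, adjusted p = 0.244 by limma). The difference was 3.81 for Hpx (SE 1.56, adjusted p = 0.178) and 3.60 for Ahsg (SE 1.74, adjusted p = 0.243). With a pseudocount of 0.1 FPKM it was 4.97 for Alb, 5.84 for Hpx and 5.14 for Ahsg, and none of the 3 passed. Every sHA-X library was above every PBS library for 14 of the 40 genes, all of them tested, and for 17.2% of the tested genes. No member had every sHA-X library below every PBS library, which held for 11.5% of tested genes. The 14 included Ahsg, Fetub, Hpx, Gc, Kng1, Rbp4, Vtn, Azgp1 and Bhmt, beside Serpinf1, Cp, Ahcy, Aldh1l1 and Itih3. Without PBS replicate 2, the library with acinar genes, this held for 21 of the 40 genes and for 21.7% of the tested genes.

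**Figure D4:**
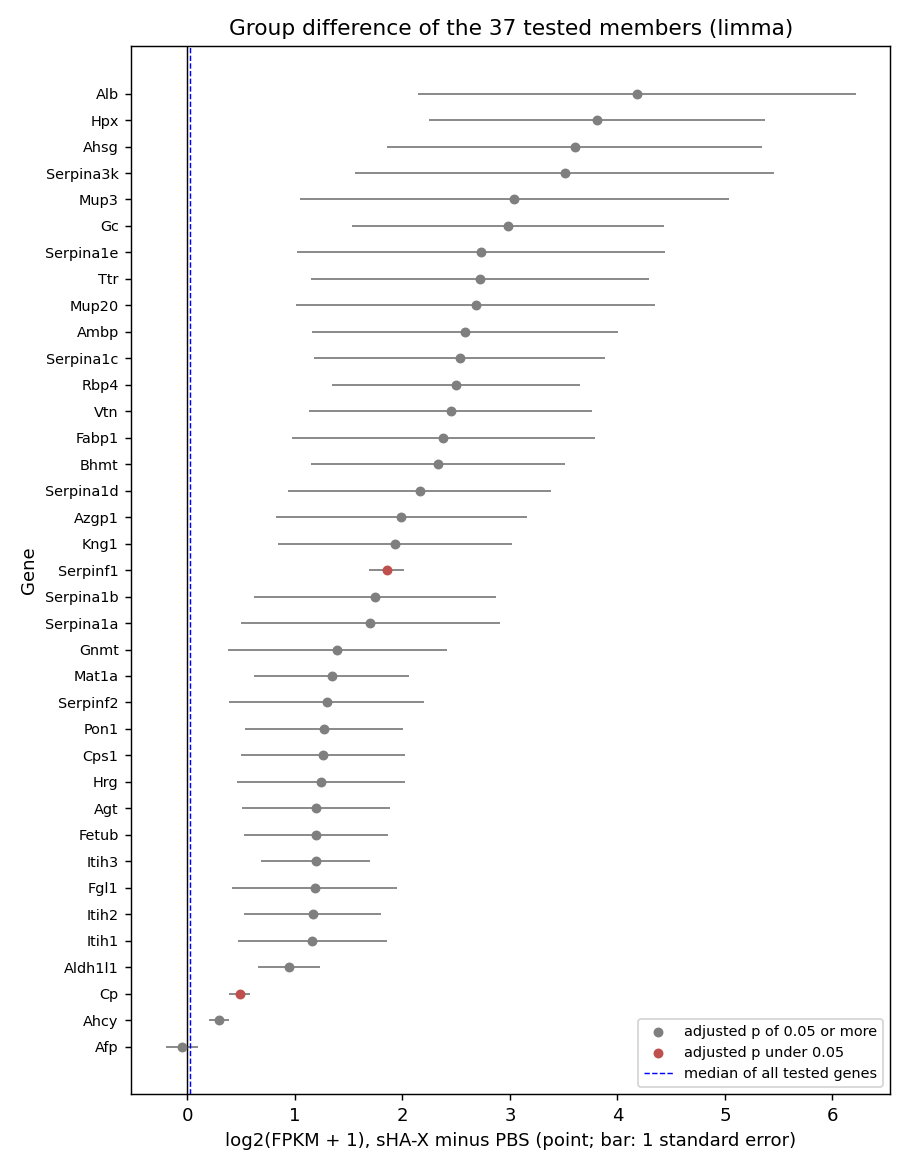
Difference in log2(FPKM + 1), sHA-X minus PBS, for the 37 tested genes, as points with bars of 1 standard error (n = 3 and 4 libraries). Serpinf1 (1.85, SE 0.17) and Cp (0.49, SE 0.10), in red, passed an adjusted p under 0.05, and the differences of Alb, Hpx and Ahsg were larger, with standard errors from 1.56 to 2.03.

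Serpinf1 encodes PEDF, an inhibitor of angiogenesis that has the serpin fold but inhibits no protease, and that fibroblasts and adipocytes secrete as well as hepatocytes. It was 4.93, 3.73 and 5.66 FPKM in PBS and 22.9, 16.4, 23.3 and 16.9 FPKM in sHA-X. All 4 sHA-X libraries were high, and sHA-X replicate 1, where albumin was at 0.587%, stood at 135% of sHA-X replicate 4. The group means were 4.77 ± 0.977 FPKM (SD, n = 3) and 19.9 ± 3.72 FPKM (SD, n = 4), which differed by 1.85 on the log2(FPKM + 1) scale (SE 0.17, limma, adjusted p = 0.000941). Serpinf2 lies beside Serpinf1 on chromosome 11 (75431736 to 75439501 and 75410029 to 75422623) and was at 1.75% of sHA-X replicate 4 in sHA-X replicate 1. Beside Serpinf1, 7 of 8 fibroblast markers rose, and their summed level was 147.7 to 209.2 FPKM in PBS and 408.6 to 628.7 FPKM in sHA-X. Of 9 adipocyte genes 5 were tested and 0 were called, with sums of 8.41 to 29.4 FPKM in PBS and 21.3 to 131.2 FPKM in sHA-X. In sHA-X replicates 3 and 4 most of the sum came from Fabp4 (17.9 and 27.1 FPKM) and Car3 (21.2 and 24.9 FPKM). Adipoq was 1.085, 0.0254 and 1.87 FPKM in PBS and 0.381, 4.90, 0.0243 and 1.07 FPKM in sHA-X, so only sHA-X replicate 2 was above the PBS range. The part of either cell type in the rise of Serpinf1 was not tested.

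Cp encodes ceruloplasmin, the copper-carrying ferroxidase of plasma, which macrophages also make. It was 17.7, 12.9 and 16.2 FPKM in PBS and 21.4, 21.8, 21.3 and 23.7 FPKM in sHA-X. The groups did not overlap, and sHA-X replicates 3 and 4 were not set apart from replicates 1 and 2. Group means were 15.6 ± 2.42 FPKM (SD, n = 3) and 22.1 ± 1.12 FPKM (SD, n = 4), which differed by 0.49 on that scale (SE 0.10, limma, adjusted p = 0.0151).

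Ahcy, the enzyme that splits S-adenosylhomocysteine in every cell, was 25.4, 27.5 and 24.7 FPKM in PBS and 27.8, 30.3, 36.9 and 33.6 FPKM in sHA-X. The groups did not overlap, and the change of 0.30 on the log2 scale did not pass (adjusted p = 0.0756, limma), with 0.042 to 0.28 over the alternative settings. Aldh1l1, a folate enzyme of the liver and of glia, was 1.39, 1.32 and 1.69 FPKM in PBS and 2.82, 2.09, 5.96 and 5.08 FPKM in sHA-X (adjusted p = 0.0782, limma). Without sHA-X replicate 2 it passed, at an adjusted p of 0.025 by limma, and over the other alternative settings it did not (0.057 to 0.21).

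Afp encodes alpha-fetoprotein, the albumin of fetal plasma, and lies downstream of Alb on chromosome 5 (90490714 to 90508907). It was 1.565, 1.41 and 1.69 FPKM in PBS and 1.05, 1.12, 2.01 and 1.81 FPKM in sHA-X. The groups overlapped. Replicates 3 and 4 of sHA-X were again the highest, at a level close to PBS (adjusted p = 0.856, limma). Alb and Afp, whose promoters share the motif printed above, thus stood at 0.0733% to 1.11% and at 77.8% to 93.3% of sHA-X replicate 4 in PBS.

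A list of 57 other hepatocyte genes summed to 195.0 to 204.4 FPKM in PBS and to 344.7, 312.6, 1270 and 1185 FPKM in sHA-X replicates 1 to 4. In 47 of them every PBS library was under 10% of sHA-X replicate 4, with a median of 0%, 1.2% and 0.339% in PBS and of 0.675%, 2.81% and 91.8% in sHA-X replicates 1 to 3. Of 42 tested genes 2 rose, Trf (transferrin) and Hp (haptoglobin), and 0 fell, with a median log2 change of 1.64 against 0.03 for all genes tested. Many of these 42 also passed the filter only through sHA-X replicates 3 and 4, so their median was partly set by the filter. By mean level the highest 4 were Trf, Hp, Apoa1 and Apoc1. Apoa1, an apolipoprotein that takes up cholesterol from cells, was at most 4.50 FPKM in the 5 low libraries and 155.4 and 141.6 FPKM in sHA-X replicates 3 and 4. Trf was at 42.9% to 50.5% and Hp at 19.4% to 26.6% of sHA-X replicate 4 in PBS, so both genes that rose were also expressed in PBS spleens. Hp was 31.6, 30.6 and 23.0 FPKM in PBS and 62.9, 68.6, 132.6 and 118.9 FPKM in sHA-X.

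Markers of other liver cells were also read in each library. Clec4f, a lectin of Kupffer cells, the macrophages of the liver, was 0, 0.0367 and 0 FPKM in PBS and 0.0551, 0.316, 3.68 and 4.72 FPKM in sHA-X. Its 2 highest libraries were those of albumin, its groups did not overlap, and it did not pass (adjusted p = 0.28, limma). Of the 5 Kupffer cell markers 2 rose, Vsig4 and Cd5l, and the list summed to 228.2 to 285.1 FPKM in PBS and 367.4 to 404.7 FPKM in sHA-X. Timd4 and Marco, which macrophages of the spleen are also known to express, did not pass, with log2 changes of -0.33 and -0.21, and were lowest in sHA-X replicate 4 (25.4 and 88.8 FPKM). In PBS, Cd5l was at 69.3 to 79.4 FPKM, Timd4 at 34.4 to 46.8 FPKM and Marco at 114.5 to 158.4 FPKM. Most of the summed level thus came from genes present in every PBS library. Of 6 cholangiocyte markers 3 were tested and 2 rose, Epcam and Spp1. The keratin gene Krt7 was 1.01 to 1.63 FPKM in PBS and 0.434, 3.40, 0.943 and 0.473 FPKM in sHA-X, and Krt19 was 0.530 to 1.36 FPKM in PBS and 0.0885, 2.69, 0.422 and 0.133 FPKM in sHA-X. Both were highest in sHA-X replicate 2 and below every PBS library in the other sHA-X libraries. Krt19 is also a marker of mesothelial cells. A list of 6 mesothelial genes that included it summed to 11.5 to 22.8 FPKM in PBS and 6.63, 34.7, 10.2 and 7.21 FPKM in sHA-X. The cell type behind the keratin values was not tested. Of 5 markers of liver sinusoid endothelium 3 rose and 1 fell, with sums of 63.2 to 81.7 FPKM in PBS and 106.3 to 112.3 FPKM in sHA-X. Of 5 stellate cell markers 1 rose and 0 fell, with sums of 44.6 to 47.4 FPKM in PBS and 44.9 to 57.1 FPKM in sHA-X. The relation of Clec4f to the hepatocyte genes was not tested. These lists do not tell liver cells from spleen cells that express the same genes, and the source of the changes was not tested.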

How the data were processed

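The deposited table gave 1 value per gene and library, and its header named no unit. The values were read as FPKM computed by the authors, since each gene moved in equal steps whose size depended on gene and library. Per the submitters' processing notes, DESeq2, HTSeq, HISAT2, fastp and R 3.2.0 were used, with mm10 as the build, and no roles are given. Whole reads (within 0.05 of a whole number) could be worked out for 16889 of 16889 genes with signal in 2 or more libraries, and served only for read numbers and intervals. Depth differed by up to 1.26 times between libraries.

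Groups were compared on log2(FPKM + 1) with limma 3.58.1 in R 4.3.3 (trend and robust variance, no covariate, mean level of 1 FPKM or more). The fit and the recovery were tested on simulated data. Intervals for a percent of sHA-X replicate 4 are exact binomial (Clopper-Pearson, 95%) on the reads of both libraries, and 0 reads were given a limit of 3 reads. They cover counting error only, and the sources used here name no molecular identifiers.

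All 40 members are named. Values of every library were to be given for those with a mean of at least 10 FPKM, for called members and for those at 50% or more in PBS. Of the other hepatocyte genes, called members and the 4 highest were named. Alb, Ttr and Fabp1 are given as reads or percents. Clec4f, Vsig4, Cd5l, Timd4, Marco, Epcam, Spp1, Krt7, Krt19, Adipoq, Fabp4 and Car3 were chosen after their values were seen. The members and lists were chosen with earlier results of these data known. Coordinates are those of RefSeq on GRCm38.p6, looked up by NCBI gene number. Alternatives were other pseudocounts, filters, scalings, variance settings, a replicate term and left-out libraries.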

Additional observations from a re-analysis of the deposited data

How the results depend on the processing

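The counts of members by their percent of sHA-X replicate 4 (34 low in PBS, 3 present) were 30 to 34 and 3 to 4 over another reference library, limits of 5% and 25%, both scalings and each PBS library left out. Serpinf1 rose under every alternative (adjusted p 0.00056 to 0.0079 by limma). Cp rose under every alternative except the replicate block. The number of members that rose was 2 to 3 without each library in turn (0 fell), and 3 with TPM scaling. Ahcy was the third there (adjusted p = 0.042) and without sHA-X replicate 1 (0.044), and Aldh1l1 without sHA-X replicate 2. Afp, which did not pass, was -0.15 to 0.035 on the log2 scale with 1 library left out, and changed sign without sHA-X replicate 1 (0.035) or 2 (0.02). Over all genes, 488 to 1263 rose and 228 to 637 fell with 1 library left out (fewest without PBS replicate 1), and 492 rose and 330 fell without both second libraries. Of all genes 1108 rose and 600 fell with FPKM as deposited, 1002 and 843 with median-of-ratios scaling, and 1265 and 417 with TPM scaling. Counts that leave out PBS replicate 2 from the comparison of overlap were chosen after seeing the data.

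The groups share replicate numbers, but same-numbered libraries did not deviate together (correlations of 0.15, -0.214 and -0.286), so the numbers are not taken as pairs. With the replicate block, where sHA-X replicate 4 has a term of its own and adds nothing to the difference, 1 member rose (Serpinf1), with 276 genes higher and 72 lower in all. Cp then had an adjusted p of 0.11 by limma.

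The low libraries hold few reads of the 34 genes, so percents from under 10 reads are uncertain by several times.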
